A study of Homo sapiens with 40 samples.

Results

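Aminoacyl-tRNA synthetases were followed through spheroids of 2 squamous carcinoma lines exposed to epidermal growth factor (EGF) with or without blockers of its receptor pathway. The members were taken by name: every row of the count table with a cytosolic (suffix 1) or mitochondrial (suffix 2) synthetase symbol except WARS1, plus EPRS1, FARSA, FARSB and the scaffold genes AIMP1, AIMP2 and EEF1E1. This gave 39 of the 12655 genes in the table, namely 8 enzymes of the multi-synthetase complex, its 3 scaffolds, 11 free cytosolic enzymes or subunits, and 17 mitochondrial enzymes. All 39 passed the filter on low counts in both lines.

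The series concerns invasion driven by the EGF receptor and what cetuximab does to it. FaDu is a line from a hypopharyngeal tumour, and Kyse30 a line from an oesophageal squamous cell carcinoma. Both carried Dendra2, whose green fluorescence turns red on illumination, and both were grown as spheroids in type I collagen in serum-free medium, so every group lacked serum. Each line gave 5 groups of 4 libraries after 72 h: cells photoconverted in invasive areas under 9 nM EGF, cells under 9 nM EGF with 10 µg/mL of the EGF receptor antibody cetuximab, cells under 9 nM EGF with the MEK inhibitor AZD6244 at 100 nM, non-invasive cells under 9 nM EGF, and cells kept in serum-free medium without EGF.

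By their titles, invasive as well as non-invasive cells were photoconverted, while the cetuximab, MEK inhibitor and serum-free cells are labelled unselected. Every comparison of the non-invasive cells with those groups therefore changed the treatment and the selection together, and their parts cannot be told apart. A selection label names both sorted groups as invasive, and the groups used here rest on the sample titles. No label says that the libraries of a group came from separate cultures, so p-values measure the spread between these libraries, which may be technical.

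A synthetase typically joins an amino acid to its matching tRNA, the step that sets the genetic code and feeds the ribosome with charged tRNA. In animal cells several cytosolic synthetases sit in one complex held together by AIMP1, AIMP2 and EEF1E1, the others act alone, and the mitochondrion imports a largely separate set encoded in the nucleus. KARS1 and GARS1 each encode both the cytosolic and the mitochondrial enzyme, and they were counted as cytosolic. Many cytosolic synthetase genes are known targets of ATF4, the transcription factor of the amino acid starvation response, which binds the C/EBP-ATF response element.

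Promoter windows from RefSeq (GRCh38.p14) were available for 32 of the 39 members, each running from 250 bases before to 50 bases after the start site. AARS2, LARS1, VARS1, VARS2 and YARS1 were among those with no entry. The core of the C/EBP-ATF element, TGATGNAAN on either strand (reverse complement NTTNCATCA), occurred in 7 of the 32 windows, or 21.9%, against 2.53% of 15843 protein-coding promoters and 1.50% of the 9390 promoters of genes in the count table. It lay in 6 of 18 cytosolic windows (33.3%) and in 1 of 14 mitochondrial windows. The 7 stretches are shown because they are the places where a shared element can be read directly. Each is given 5′ to 3′ on the strand of the gene, with the matching 9 bases in capitals.
AARS1, chr16:70289677-70289703, minus strand: tttctcgcaGTTGCATCAgccaagtta
CARS1, chr11:3057409-3057435, minus strand: ggggcggcgGTTGCATCAgattctagg
IARS1, chr9:92293694-92293720, minus strand: tttcagcgcGTTGCATCAcctccgtgc
MARS1, chr12:57488054-57488080, plus strand: ccggttccgGTTGCATCAgcgagggat
NARS1, chr18:57621805-57621831, minus strand: tacgctctcTGATGCAACgccggaatc
TARS1, chr5:33440957-33440983, plus strand: cgcctttcgATTGCATCAgctggtcca
YARS2, chr12:32756077-32756103, minus strand: ccacactgcTGATGGAAAaattaagtt
The matches began 188, 3, 14 and 5 bases before the start site in AARS1, CARS1, IARS1 and MARS1. That of YARS2 began 197 bases before it, and those of TARS1 and NARS1 began at bases 2 and 15 of the transcript. AARS1, CARS1, IARS1 and MARS1 shared the same 9 letters, and NARS1 carried them on the other strand. The E-box CACGTG, a palindrome bound by MYC-family factors, occurred in 4 of the 32 windows (CARS2, EARS2, IARS1 and MARS2; 12.5%), against 8.88% of all protein-coding promoters and 10.3% of those of genes in the count table. A match is a description of the letters and not a measured binding site.

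Total counts ran from 2312126 to 5669262 per library in FaDu and from 2538447 to 4534339 in 19 Kyse30 libraries. The other Kyse30 library, invasive replicate 1, held 463124 counts and detected 21 of the 39 members. There, 26.6% of counts were mitochondrial transcripts and 8.18% were MALAT1, and a count of 0 allows up to 6.4 CPM (counts relative to the size of the library). Kyse30 non-invasive replicates 1 and 3 also stood apart, with 17.4% and 19.3% mitochondrial transcripts and 6.27% and 9.63% MALAT1, against 8.22% and 8.95%, and 1.68% and 1.91%, in replicates 2 and 4. In FaDu, mitochondrial transcripts took 7.50% to 11.5% of non-invasive, 7.02% to 11% of cetuximab and 7.87% to 14.6% of MEK inhibitor libraries, against 14.3% to 15.8% of serum-free libraries. In Kyse30 serum-free libraries that share was 19.7% to 23.8%. The part of these differences in the results below was not tested. All 10 squamous and epithelial carcinoma markers were in the table, with summed levels of 5610 to 10900 CPM in FaDu and 3470 to 14100 in Kyse30. Of the fibroblast, immune and endothelial lists, 1 of 8, 1 of 5 and 1 of 4 genes were in the table, with at most 24.9, 54.0 and 32.8 CPM.

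CPM were computed with TMM factors within a line. The assay reads the 3′ end of each transcript, so a level is a count of 3′ ends and was not divided by length. A gene was called at an adjusted p under 0.05 in the quasi-likelihood test of edgeR, with Benjamini-Hochberg adjustment over all genes tested, and every adjusted p below comes from that test. In bulk samples, fewer cells of a type and less RNA per cell cannot be told apart. On this scale the most abundant members were TARS1 among the free enzymes, EPRS1 in the complex, AIMP1 among the scaffolds and IARS2 among the mitochondrial enzymes.

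Under EGF, FaDu cells had more RNA for most cytosolic synthetases. In non-invasive EGF cells against serum-free cells, 23 of the 39 members were higher and 1 was lower. Over all 12131 genes tested, 25.3% were called higher and 24.7% lower. Of the 22 cytosolic members 18 were higher and none lower, with a median log2 fold change of 0.70, against -0.02 over all genes. Among the 17 mitochondrial enzymes 5 were higher (CARS2, EARS2, LARS2 and YARS2 among them) and 1 was lower (PARS2), with a median of 0.15. As a class the mitochondrial enzymes were lower in level, where counting error weighs more. Its part in their smaller share of calls was not tested. The members called higher were 7 of 8 complex enzymes, 2 of 3 scaffolds and 9 of 11 free enzymes. Of the 12 cytosolic enzymes reported as ATF4 targets 10 were higher, and of the other 7 cytosolic enzymes 6 were.

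**Figure D1:**
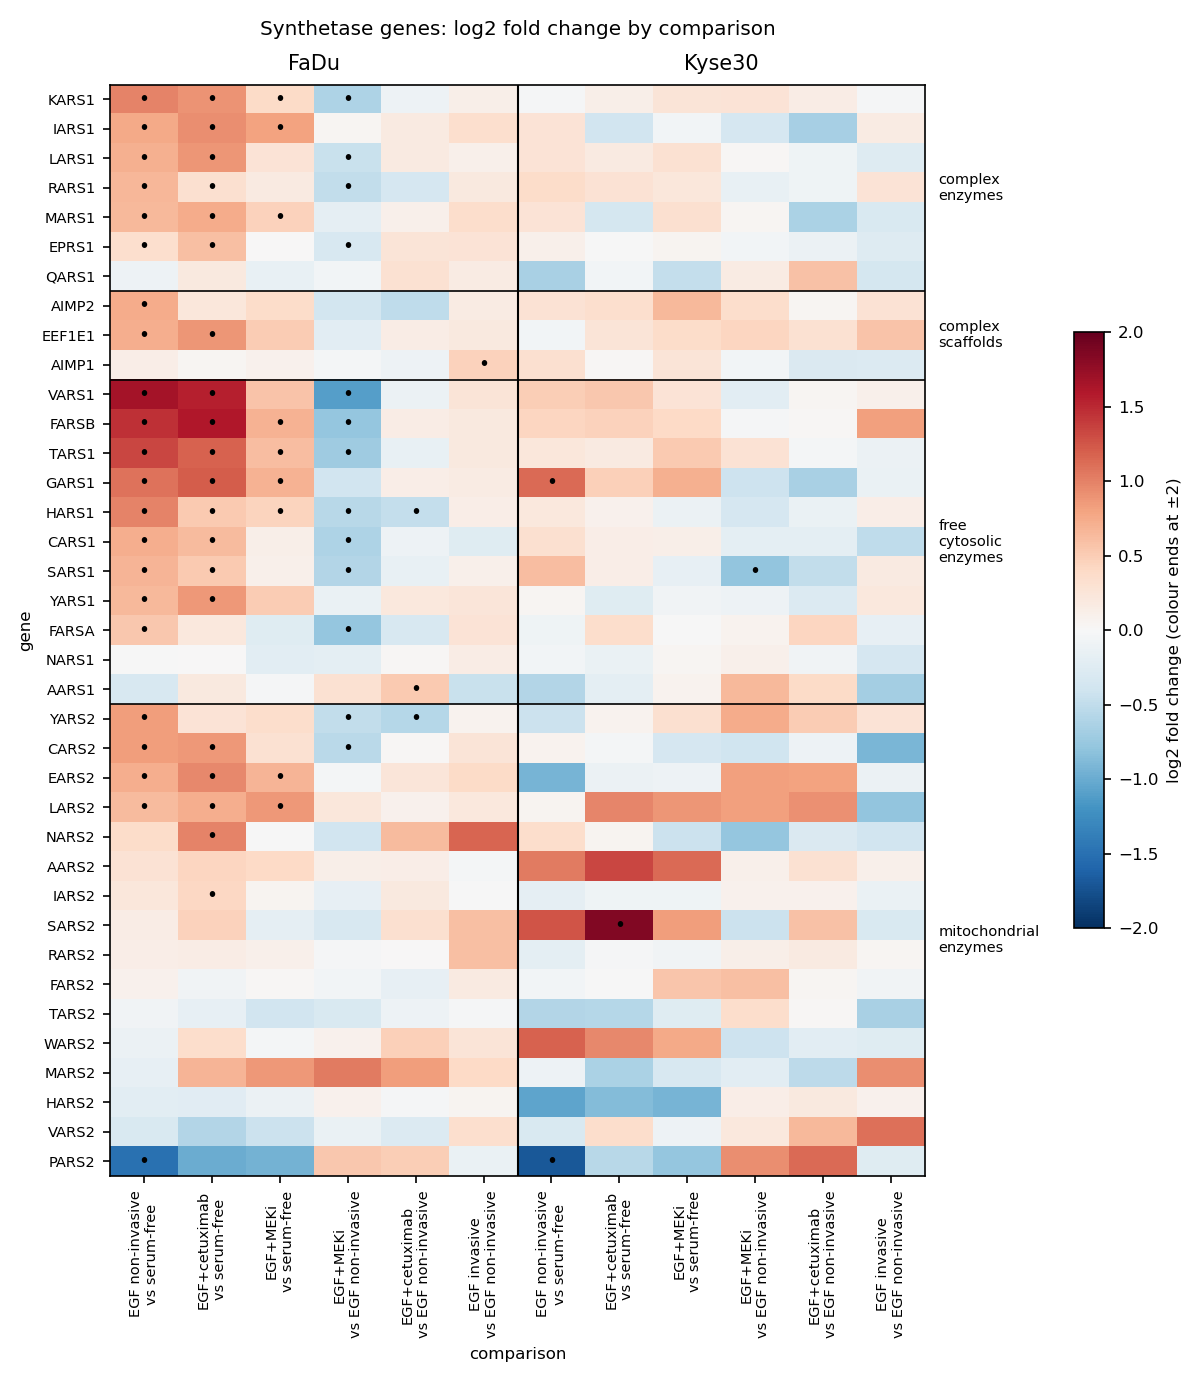
Log2 fold change of 37 members (rows, grouped by class and sorted by the FaDu EGF comparison) in 6 comparisons per line (columns). Red is higher in the first-named group, blue is lower, colours end at ±2, and a dot marks an adjusted p under 0.05. The FaDu columns hold 21 and 20 dots on red for EGF non-invasive and EGF with cetuximab against serum-free, and 13 on blue for EGF with MEK inhibitor against EGF non-invasive. No Kyse30 column holds more than 2 dots.

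VARS1, the only cytosolic valyl-tRNA synthetase, had the largest change. It stood at 67.3, 83.1, 68.9 and 64.8 CPM in non-invasive EGF cells, against 13.9, 22.01, 23.8 and 28.2 CPM in serum-free cells. Every EGF library was above every serum-free library, and the fold was 3.18 (log2 1.67 ± 0.21 SE; edgeR adjusted p = 2.91e-07). FARSB, the beta subunit of phenylalanyl-tRNA synthetase, had 73.8, 76.1, 61.3 and 62.6 CPM in non-invasive EGF cells, against 15.1, 24.1, 21.8 and 36.7 CPM in serum-free cells. The groups did not overlap, and the fold was 2.75 (log2 1.46 ± 0.22 SE; edgeR adjusted p = 4.79e-06). Its partner FARSA, the alpha subunit, was higher by a smaller step (fold 1.45; edgeR adjusted p = 0.0145).

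TARS1, the threonyl enzyme and the most abundant member, had 611, 699, 768 and 715 CPM in non-invasive EGF cells, against 259, 283, 282 and 284 CPM in serum-free cells. Every EGF library was far above every serum-free library, and the fold was 2.51 (edgeR adjusted p = 1.14e-07). KARS1, the lysyl enzyme of the complex, had 256, 263, 239 and 232 CPM in non-invasive EGF cells, against 113, 136, 126 and 119 CPM in serum-free cells. The groups were again apart, and the fold was 1.99 (edgeR adjusted p = 5.98e-07). EPRS1, the fused glutamyl-prolyl enzyme, was among the smallest of the called changes, at 248, 283, 263 and 253 CPM in non-invasive EGF cells, against 221, 227, 174 and 207 CPM in serum-free cells (fold 1.26; edgeR adjusted p = 0.0267). The EPRS1 call was lost when replicate number 3 or 4 was left out of every group (edgeR adjusted p = 0.135 and 0.0852). GARS1 and HARS1, the glycyl and histidyl enzymes, rose 2.12-fold and 1.99-fold.

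Among the mitochondrial enzymes, EARS2, which charges glutamate, had 28.3, 24.7, 22.5 and 19.4 CPM in non-invasive EGF cells, against 8.97, 14.8, 15.6 and 17.1 CPM in serum-free cells. The groups did not overlap, and the fold was 1.66 (edgeR adjusted p = 0.00443). YARS2, the tyrosyl enzyme, had 46.4, 47.1, 48.9 and 44.5 CPM in non-invasive EGF cells, against 19.6, 24.6, 28.1 and 31.2 CPM in serum-free cells (fold 1.79; edgeR adjusted p = 4.19e-04). The YARS2 groups were apart as well. PARS2, the prolyl enzyme, went the other way at low levels, with 1.57, 2.10, 6.02 and 7.98 CPM in non-invasive EGF cells, against 15.5, 11.01, 13.6 and 9.81 CPM in serum-free cells (log2 -1.49 ± 0.43 SE; edgeR adjusted p = 0.00484). PARS2 was singled out after its values were seen, as the only member called lower. IARS2, the isoleucyl enzyme and the most abundant of the class, was not called (log2 0.22, edgeR adjusted p = 0.161), nor were AARS2, FARS2, HARS2, MARS2, NARS2, RARS2, SARS2, TARS2, VARS2 and WARS2.

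The 4 cytosolic members without a call were AARS1, QARS1, NARS1 and AIMP1. AARS1, the alanyl enzyme, had 85.9, 89.6, 95.7 and 92.2 CPM in non-invasive EGF cells, against 108, 124, 106 and 116 CPM in serum-free cells. All 4 EGF libraries lay below all serum-free libraries, but the difference missed the threshold (log2 -0.33 ± 0.14 SE; edgeR adjusted p = 0.0583). Without FaDu cetuximab replicate 2, which belongs to neither group but shares the fit, AARS1 was called lower (edgeR adjusted p = 0.0181). QARS1, the glutaminyl enzyme of the complex, had overlapping groups and a log2 change of -0.10.

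Of the members with a promoter window, 4 of 6 cytosolic members with the C/EBP-ATF core were called higher in this comparison (CARS1, IARS1, MARS1 and TARS1), and 10 of 12 without it were. AARS1 and NARS1, which carry the same 9 letters on opposite strands, were not called. YARS2 was the mitochondrial member with a match and was higher, as were 3 of the 13 mitochondrial members without one.

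With the MEK inhibitor added to EGF, FaDu cells had less RNA for 12 of the 22 cytosolic members than non-invasive EGF cells, and the other 10, all 3 scaffolds among them, did not pass the test. No member was higher and 14 were lower, while 14.8% of all genes tested were called higher and 14.9% lower. The 14 were 12 cytosolic members (among them CARS1, EPRS1, FARSA, FARSB, HARS1, KARS1, LARS1, RARS1, SARS1, TARS1 and VARS1) and 2 mitochondrial enzymes, CARS2 and YARS2. The EPRS1 call was lost with DESeq2's size factors, a replicate block, any one replicate number left out, or the libraries that stood apart left out (edgeR adjusted p = 0.0526 to 0.14). The YARS2 call was lost with those size factors and without replicate number 2, 3 or 4 (edgeR adjusted p = 0.057 to 0.22). Without cetuximab replicate 2, which is in neither group, 14 were lower and AARS1 was called higher (log2 0.31, edgeR adjusted p = 0.0372). This comparison uses the same non-invasive libraries as the EGF comparison above, so they are not independent. VARS1 again changed most, with 30.6, 31.8, 42.4 and 27.04 CPM under the MEK inhibitor, against 67.3, 83.1, 68.9 and 64.8 CPM in non-invasive EGF cells. The groups did not overlap, and the level under the inhibitor was 0.466 of that in non-invasive cells (log2 -1.10 ± 0.20 SE; edgeR adjusted p = 1.62e-04).

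FARSA and FARSB, which together form one enzyme, were next. FARSA had 25.7, 30.2, 23.1 and 32.8 CPM under the MEK inhibitor, against 50.2, 52.3, 48.0 and 41.4 CPM in non-invasive EGF cells (log2 -0.77 ± 0.18 SE; edgeR adjusted p = 0.00168). FARSB had 23.9, 37.1, 52.5 and 45.8 CPM under the MEK inhibitor, against 73.8, 76.1, 61.3 and 62.6 CPM in non-invasive EGF cells (log2 -0.77 ± 0.21 SE; edgeR adjusted p = 0.0076). Neither gene's groups overlapped, although FARSB spread widely among the MEK inhibitor libraries, the lowest being replicate 1, which also had the highest mitochondrial share of its group at 14.6%. Leaving out that library and FaDu invasive replicate 2, the FaDu libraries set apart, 13 members were lower, FARSA and FARSB among them. In Kyse30 the libraries set apart were invasive replicate 1 and non-invasive replicates 1 and 3. Leaving out a replicate number at a time gave 8 to 12 calls, the 8 without replicate 3. TARS1 fell to 352, 497, 440 and 421 CPM under the MEK inhibitor, against 611, 699, 768 and 715 CPM in non-invasive EGF cells (edgeR adjusted p = 0.00113).

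Against serum-free cells, the MEK inhibitor cells had 9 members higher and none lower (4 higher without replicate 3), with 10.8% of all genes tested called higher and 8.63% lower. The 9 were EARS2, FARSB, GARS1, HARS1, IARS1, KARS1, LARS2, MARS1 and TARS1. TARS1 was 1.54-fold higher (edgeR adjusted p = 0.00567) and KARS1 1.30-fold higher (edgeR adjusted p = 0.0424), against 2.51-fold and 1.99-fold for non-invasive EGF cells. VARS1 did not pass the test in this comparison (log2 0.57 ± 0.21 SE; edgeR adjusted p = 0.0628), but did when cetuximab replicate 2 was left out (edgeR adjusted p = 0.0258). EPRS1 stood at 208 ± 21.1 CPM under the MEK inhibitor and 207 ± 23.9 CPM in serum-free cells (SD, n = 4 libraries each).

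**Figure D2:**
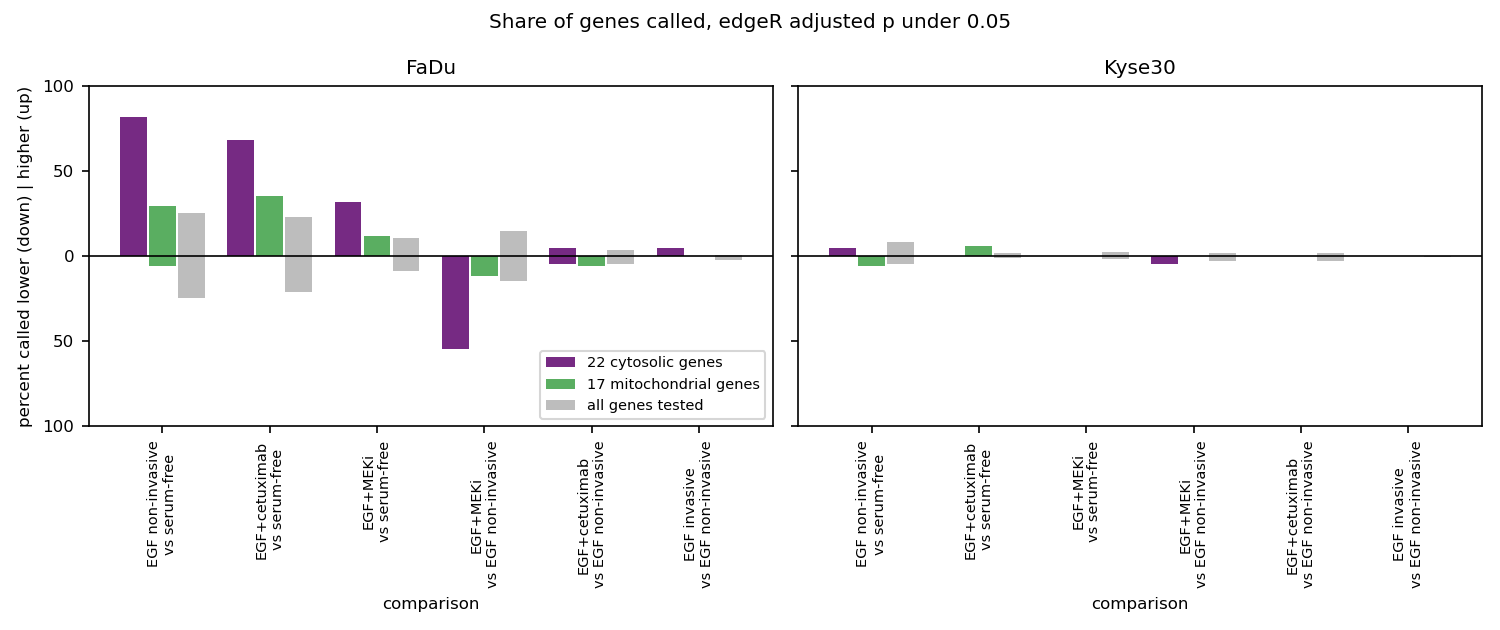
Share of genes called higher (bars up) and lower (bars down), in percent, for the 22 cytosolic members, the 17 mitochondrial members and all genes tested, by comparison and line. In FaDu 81.8% of the cytosolic members were higher in EGF non-invasive against serum-free, beside 25.3% of all genes, and no bar for Kyse30 exceeds 8.10%.

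With cetuximab added to EGF, few FaDu synthetases passed the test against non-invasive EGF cells. In that comparison 1 member was higher and 2 were lower, with 3.64% of all genes tested called higher and 4.93% lower. YARS2 had 36.5, 26.1, 30.0 and 33.2 CPM under cetuximab, against 46.4, 47.1, 48.9 and 44.5 CPM in non-invasive EGF cells (log2 -0.57 ± 0.18 SE; edgeR adjusted p = 0.0464). HARS1 had 46.5, 47.9, 32.8 and 41.0 CPM under cetuximab, against 56.3, 60.5, 64.5 and 51.3 CPM in non-invasive EGF cells (log2 -0.47 ± 0.14 SE; edgeR adjusted p = 0.0393). For both genes every cetuximab library lay below every non-invasive library. AARS1 moved up, at 118, 180, 112 and 114 CPM under cetuximab, against 85.9, 89.6, 95.7 and 92.2 CPM in non-invasive EGF cells (log2 0.52 ± 0.14 SE; edgeR adjusted p = 0.0179).

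Cetuximab replicate 2, at 180 CPM of AARS1, stood above the other libraries. Without it the AARS1 log2 difference was 0.33 and the adjusted p 0.0758 in the same edgeR test, and the YARS2 call was lost too (edgeR adjusted p = 0.089). That library also had the highest TARS1 level in FaDu, 934 CPM, against 467 to 645 CPM in the other 3 cetuximab libraries. SARS1, the seryl enzyme, showed the same spread, at 650 CPM in replicate 2 and 302 to 392 CPM in the other cetuximab libraries. With that library left out, TARS1 was called lower under cetuximab (log2 -0.39, edgeR adjusted p = 0.0364), as was SARS1 (log2 -0.45, edgeR adjusted p = 0.0244). Leaving replicate number 3 or 4 out of every group gave 0 calls.

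Against serum-free cells, cetuximab cells had 21 members higher and none lower, where 22.7% of all genes tested were called higher and 21.1% lower. Cytosolic members made up 15 of the 21, and the mitochondrial ones included CARS2, EARS2, IARS2, LARS2 and NARS2. FARSB rose 3.05-fold (edgeR adjusted p = 1.59e-06) and VARS1 2.93-fold (edgeR adjusted p = 1.25e-06), against 2.75-fold and 3.18-fold for non-invasive EGF cells over the same serum-free libraries. Without cetuximab replicate 2, 19 members were higher and none lower.

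**Figure D3:**
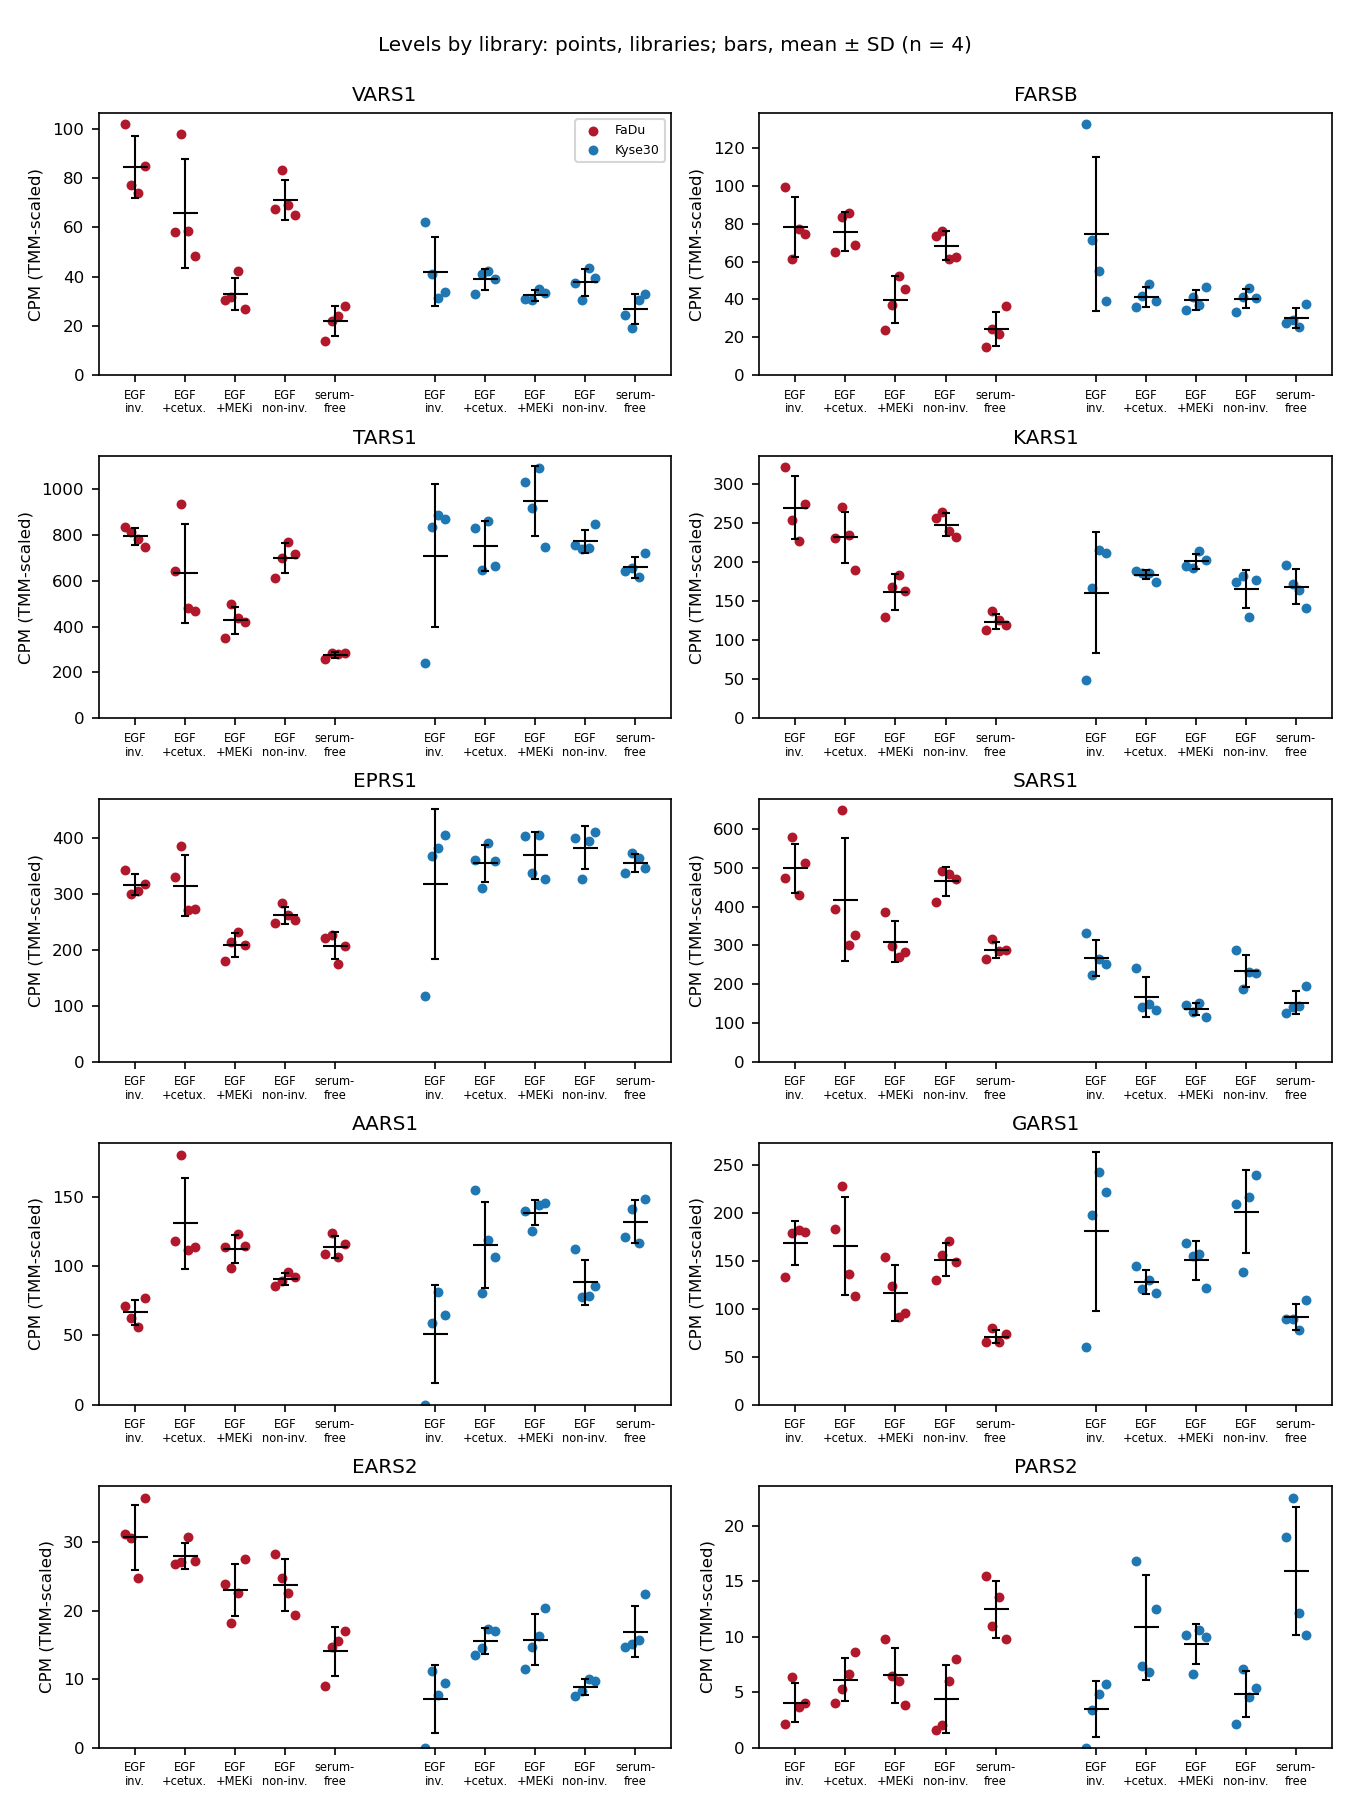
CPM in each library (points) with the mean and SD of each group of 4 (bars) for 10 members, FaDu in red and Kyse30 in blue, groups along the horizontal axis. FaDu VARS1, TARS1 and KARS1 have their lowest group mean in serum-free cells, AARS1 has its lowest in invasive cells, and Kyse30 invasive replicate 1 is the far point in several panels.

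In invasive against non-invasive FaDu cells 1 member passed the test. AIMP1, a scaffold of the complex that is also released as a cytokine, was called higher, and none was lower. Over all genes tested 0.659% were called higher and 2.34% lower. AIMP1 had 120, 112, 117 and 132 CPM in invasive cells, against 86.3, 84.7, 98.2 and 80.3 CPM in non-invasive cells. All invasive libraries were above all non-invasive libraries, and the fold was 1.38 (log2 0.46 ± 0.12 SE; edgeR adjusted p = 0.0268). The call was lost when any one replicate number was left out, which removes a library from every group. Of the 39 members 31 had a positive log2 difference, with a median of 0.19, against -0.01 over all genes. AARS1 was at 71.1, 62.8, 56.1 and 76.8 CPM in invasive cells, against 85.9, 89.6, 95.7 and 92.2 CPM in non-invasive cells. Its groups did not overlap, but it missed the threshold (log2 -0.44 ± 0.14 SE; edgeR adjusted p = 0.101) unless cetuximab replicate 2 was left out (edgeR adjusted p = 0.0259).

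In Kyse30, few synthetases passed the test in any comparison. The fit includes the library of 463124 counts, and the SE of the AARS1 change below was 0.39 with it and 0.18 without it. In non-invasive EGF cells against serum-free cells 1 member was higher and 1 lower, with 8.10% of all 11976 genes tested called higher and 4.76% lower. GARS1 had 209, 139, 216 and 239 CPM in non-invasive EGF cells, against 89.2, 89.3, 77.6 and 109 CPM in serum-free cells. Every EGF library was above every serum-free library, and the fold was 2.20 (log2 1.14 ± 0.27 SE; edgeR adjusted p = 0.00646). The GARS1 call was lost without replicate number 2, 3 or 4 (edgeR adjusted p = 0.0699 to 0.121). PARS2 was the lower one, as in FaDu, with 2.19, 7.16, 4.61 and 5.41 CPM in non-invasive EGF cells, against 19.0, 22.5, 12.2 and 10.1 CPM in serum-free cells (log2 -1.70 ± 0.46 SE; edgeR adjusted p = 0.0155). The PARS2 groups did not overlap.

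Without the shallow library, 11 Kyse30 members were called in that comparison, 5 higher and 6 lower, beside 15.9% and 12.0% of all 12072 genes tested. The higher ones included GARS1 and SARS1 of the cytosolic class and SARS2 and WARS2 of the mitochondrial class. AARS1 and QARS1 of the cytosolic class and EARS2, HARS2, PARS2 and TARS2 of the mitochondrial class were lower. AARS1 had 112, 77.4, 78.3 and 85.5 CPM in non-invasive EGF cells, against 121, 141, 116 and 149 CPM in serum-free cells, with no overlap (log2 -0.58; edgeR adjusted p = 0.0156 when the shallow library was left out and 0.37 otherwise). EARS2 had 7.52, 8.24, 9.98 and 9.70 CPM in non-invasive EGF cells, against 14.6, 15.1, 15.7 and 22.4 CPM in serum-free cells, also with no overlap (log2 -0.93; edgeR adjusted p = 0.0156 when that library was left out and 0.122 otherwise).

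The other Kyse30 comparisons gave between 0 and 1 calls with all libraries. Without the shallow library, 3 members were higher and 2 lower under cetuximab and 2 higher and 2 lower under the MEK inhibitor, each against non-invasive EGF cells. Over all genes tested, 7.37% were then higher and 9.76% lower under cetuximab, and 5.84% and 8.56% under the MEK inhibitor. Against serum-free cells, 3 were then higher and none lower under cetuximab, and 3 higher and 1 lower under the MEK inhibitor. The all-gene shares there were 8.72% higher and 6.42% lower under cetuximab, and 8.52% and 6.9% under the MEK inhibitor. These member counts were near or below the shares over all genes. Invasion gave no call either way. With the MEK inhibitor, SARS1 was the 1 member lower than in non-invasive EGF cells and none was higher, where 1.65% of all genes were called higher and 2.91% lower. SARS1 had 146, 128, 151 and 116 CPM under the MEK inhibitor, against 288, 187, 232 and 228 CPM in non-invasive EGF cells, and the groups did not overlap (log2 -0.79 ± 0.22 SE; edgeR adjusted p = 0.0312). The SARS1 call was lost with DESeq2's size factors (edgeR adjusted p = 0.0681), without all the libraries that stood apart (edgeR adjusted p = 0.059) and without replicate number 2, 3 or 4 (edgeR adjusted p = 0.157 to 0.246). Under cetuximab against non-invasive EGF cells no member was called by edgeR (6 at an unadjusted p under 0.05, 2 calls with DESeq2 and none with limma-voom), where 1.85% of all genes were called higher and 3.08% lower. In cetuximab against serum-free cells SARS2, the mitochondrial seryl enzyme, was the only call, singled out after its values were seen, with 23.8, 21.8, 12.4 and 13.0 CPM under cetuximab, against 4.75, 2.57, 3.13 and 9.30 CPM in serum-free cells (log2 1.85 ± 0.51 SE; edgeR adjusted p = 0.042; 1.88% of all genes higher and 1.25% lower). No member was called there with a replicate block or without replicate number 2, 3 or 4. In MEK inhibitor against serum-free cells none was called by edgeR (3 at an unadjusted p under 0.05, and none with DESeq2 or limma-voom), with 2.29% of all genes higher and 1.61% lower.

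In invasive Kyse30 cells against non-invasive ones no member was called by edgeR (4 at an unadjusted p under 0.05, and no call by any alternative tried), and 0.0668% of all genes were called higher and 0.342% lower. FARSB had the smallest p, at 133, 71.5, 55.2 and 39.3 CPM in invasive cells, against 33.5, 41.4, 46.1 and 40.8 CPM in non-invasive cells. The groups overlapped, the highest value came from the shallow library, and the test was not passed (log2 0.83 ± 0.31 SE; edgeR adjusted p = 0.237). AIMP1 had 0 counts in the shallow library and 105 to 111 CPM in the other 3 invasive libraries, against 80.2 to 134 CPM in non-invasive cells. WARS1, the tryptophanyl enzyme left out of the set and known to be induced by interferon, was higher in invasive than non-invasive Kyse30 cells (log2 2.69 ± 0.47 SE; edgeR adjusted p = 0.00756) and higher under the MEK inhibitor than in non-invasive cells (log2 2.16; edgeR adjusted p = 0.00469). The WARS1 call for invasion was lost without the libraries that stood apart (edgeR adjusted p = 0.0777), and in FaDu the log2 changes were -0.13 for invasion (not called) and -0.74 for the MEK inhibitor (edgeR adjusted p = 0.0116). Against serum-free FaDu cells WARS1 was higher in non-invasive EGF cells (log2 1.87; edgeR adjusted p = 2.44e-07), as most cytosolic members were. It was also higher there under cetuximab (log2 1.18; edgeR adjusted p = 1.93e-04) and the MEK inhibitor (log2 1.13; edgeR adjusted p = 9.63e-04). In Kyse30 the EGF change of WARS1 was not called (log2 0.75; edgeR adjusted p = 0.327).

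Testing the difference between the lines directly, the EGF effect was smaller or opposite in Kyse30 for 6 members and larger for none, where 9.48% of all 12652 genes tested were called higher and 6.20% lower in the Kyse30 change less the FaDu change. EARS2 differed most, with a log2 change of -0.93 in Kyse30 and 0.73 in FaDu (difference -1.66 ± 0.40 SE; edgeR adjusted p = 0.00325). YARS2 had log2 changes of -0.43 in Kyse30 and 0.84 in FaDu (difference -1.26; edgeR adjusted p = 0.0355). VARS1 had 0.49 in Kyse30 and 1.67 in FaDu (difference -1.18; edgeR adjusted p = 0.0095). TARS1 had 0.23 in Kyse30 and 1.33 in FaDu (difference -1.09; edgeR adjusted p = 0.016). FARSB had 0.43 in Kyse30 and 1.46 in FaDu (difference -1.03; edgeR adjusted p = 0.0448), and KARS1 had -0.02 in Kyse30 and 1.00 in FaDu (difference -1.01; edgeR adjusted p = 0.0201). The FARSB call was lost with DESeq2's size factors, with a replicate block and without any one replicate number (edgeR adjusted p = 0.0608 to 0.239). With limma-voom the FARSB and YARS2 calls were both lost (limma-voom adjusted p = 0.0542 and 0.0894).

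KARS1 had 175, 182, 130 and 177 CPM in non-invasive Kyse30 EGF cells, against 196, 171, 164 and 141 CPM in Kyse30 serum-free cells, and the groups overlapped. TARS1 stood at 641, 654, 618 and 722 CPM in Kyse30 serum-free cells, where FaDu serum-free cells had 259 to 284 CPM. CPM of the 2 lines were scaled separately, so levels between lines are only set side by side. GARS1 showed no difference that passed the test (difference 0.06 ± 0.35 SE; edgeR adjusted p = 0.959), and nor did the other 32 members. Without replicate number 2, 3 or 4 in every group, 1, 1 and 2 members were called. Without the shallow library the 6 members were all called, HARS1 and QARS1 were lower as well, and WARS2 was higher in Kyse30 less FaDu. The shares of all genes given for this difference belong to the fit with all libraries.

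The effects of the other treatments were not shown to differ between the lines. For the MEK inhibitor against non-invasive EGF cells no member was called by edgeR (6 at an unadjusted p under 0.05, 4 calls with DESeq2 and 2 with limma-voom), with 2.27% of all genes higher and 2.83% lower. TARS1 had the smallest p (difference 1.01 ± 0.32 SE; edgeR adjusted p = 0.0551), and without the shallow library 6 members were called higher: AIMP2, FARSA, KARS1, TARS1, VARS1 and YARS2. The shares of all genes just given belong to the fit with all libraries, and none is set beside these 6. In Kyse30 alone, leaving that library out raised the share of all genes called higher under the MEK inhibitor from 1.65% to 5.84%. For cetuximab none was called by edgeR (4 at an unadjusted p under 0.05, 1 call with DESeq2 and none with limma-voom), with 0.751% of all genes higher and 0.561% lower. For invasion none was called by edgeR (3 at an unadjusted p under 0.05, and none with DESeq2 or limma-voom), with 0.142% of all genes higher and 0.0395% lower.

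Summed over the 22 cytosolic members, FaDu libraries held 3982 ± 215 CPM in invasive cells, 3584 ± 723 CPM under cetuximab, 2663 ± 75.4 CPM under the MEK inhibitor, 3645 ± 194 CPM in non-invasive cells and 2276 ± 117 CPM in serum-free cells (SD, n = 4 libraries each). The MEK inhibitor libraries, at 2553 to 2722 CPM, lay between the non-invasive libraries (3388 to 3829 CPM) and the serum-free libraries (2166 to 2417 CPM) with no overlap. The cetuximab libraries, at 3033 to 4618 CPM, overlapped the non-invasive ones. In Kyse30 the sums were 3412 ± 838, 3375 ± 277, 3584 ± 290, 3647 ± 250 and 3087 ± 158 CPM in the same order, and the invasive group held the shallow library at 2161 CPM. These sums give most weight to TARS1, SARS1 and EPRS1, and no test was made on them.

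The 17 mitochondrial members summed to 464 ± 38.9 CPM in invasive, 424 ± 40.5 CPM in cetuximab, 352 ± 9.91 CPM in MEK inhibitor, 402 ± 17.7 CPM in non-invasive and 329 ± 6.69 CPM in serum-free FaDu cells. The MEK inhibitor libraries (342 to 362 CPM) again lay between the non-invasive (377 to 420 CPM) and the serum-free libraries (324 to 339 CPM). The cetuximab mean was above the non-invasive mean here and below it for the cytosolic sum, with overlapping libraries in both. In Kyse30 the mitochondrial sum was 293 ± 30.6 CPM in non-invasive cells and 348 ± 21.3 CPM in serum-free cells, the reverse of the order in FaDu. Non-invasive replicates 1 and 3, which stood apart, held 273.5 and 260.2 CPM. Replicates 2 and 4 held 318.7 and 319.4 CPM, nearer to the serum-free libraries at 327.7 to 378 CPM.

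**Figure D4:**
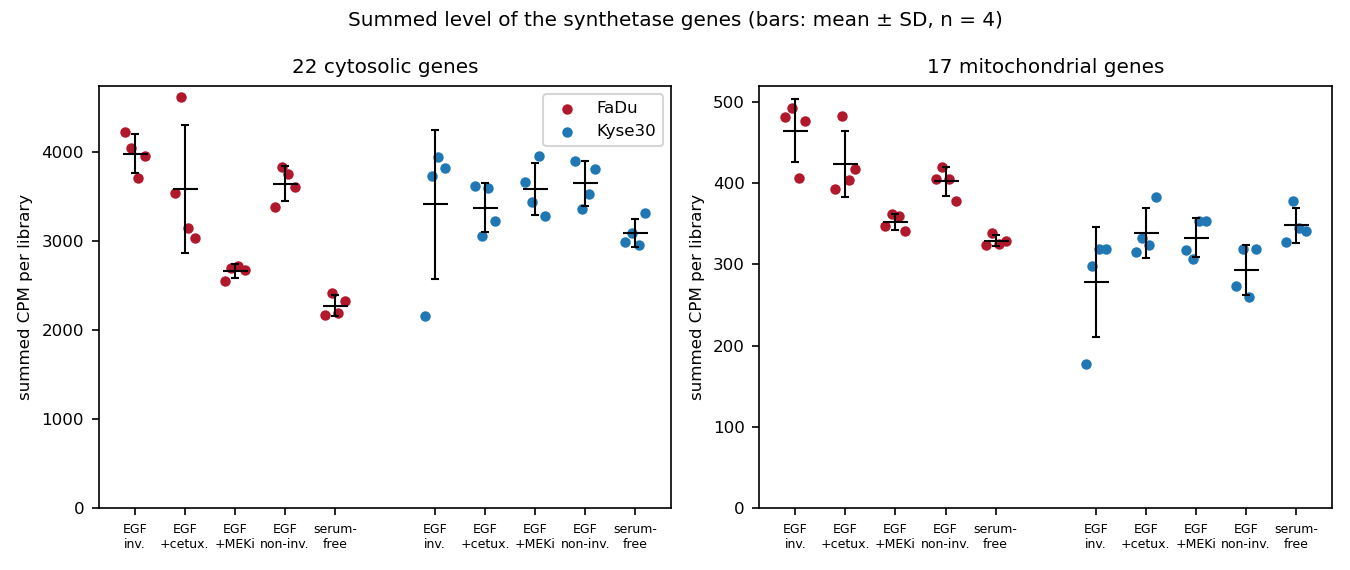
Summed CPM per library (points) with the mean and SD of each group of 4 (bars) for the 22 cytosolic and the 17 mitochondrial members, FaDu in red and Kyse30 in blue. In FaDu the MEK inhibitor libraries lie between the EGF non-invasive and the serum-free libraries in both panels. The lowest Kyse30 point in each panel is the shallow invasive library.

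Across the 20 FaDu libraries the cytosolic members varied together. The median Spearman correlation of log2 CPM was 0.56 over 231 cytosolic pairs, 0.09 over 136 mitochondrial pairs and 0.25 over 374 mixed pairs. The mitochondrial members were lower in level, with a sum of 402 CPM in non-invasive cells against 3645 CPM for the cytosolic members. Counting error weighs more at low levels, and its part in these medians was not tested. The closest pairs were KARS1 with VARS1 (0.949), TARS1 with VARS1 (0.944) and GARS1 with YARS1 (0.913). AARS1 stood alone, with a median of -0.35 against the other cytosolic members, and QARS1 was next lowest at 0.20. In the 20 Kyse30 libraries the same medians were 0.12, 0.13 and 0.02, and over the 19 libraries left after dropping the shallow one 0.13, 0.07 and -0.03. The libraries share their groups, depth and scaling, so these values describe the libraries only.

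Other genes that supply protein synthesis were read from lists in the same tests. In FaDu non-invasive EGF cells against serum-free cells, 22 of 33 initiation factors tested were higher and 1 lower, 5 of 10 elongation factors were higher, 15 of 34 genes of tRNA export, splicing and modification were higher, and 5 of 20 genes of the RNA polymerase III machinery, which transcribes tRNA genes, were higher. Those with the smallest adjusted p included EIF3D, a subunit of the eIF3 initiation complex (log2 1.20), EIF5A (log2 1.81), POP1, a protein of the RNase P and MRP complexes (log2 1.64), and POLR3G, an RNA polymerase III subunit (log2 2.63). Of the mitochondrial translation factors 2 of 14 were higher and 2 lower. Over all genes tested 25.3% were called higher in this comparison, and the RNA polymerase III count was close to that share.

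With the MEK inhibitor against non-invasive EGF cells in FaDu, none of the initiation factors was higher and 15 of 33 were lower, 5 of 10 elongation factors were lower, and 10 of 34 tRNA processing genes were lower with 1 higher. Over all genes tested 14.8% were called higher and 14.9% lower there. The ATF4 response genes outside the synthetases were mixed. In FaDu non-invasive EGF cells against serum-free cells 8 of 22 were higher and 1 lower, with TRIB3, a pseudokinase (log2 2.11), and MTHFD2, a mitochondrial folate enzyme (log2 1.61), higher and NUPR1, a stress-induced chromatin protein (log2 -5.89), lower. Over all genes tested 25.3% were called higher and 24.7% lower in that EGF comparison. With the MEK inhibitor against non-invasive cells 3 of the ATF4 response genes were higher and 3 lower, each count close to the share over all genes. Amino acid transporters gave 5 higher and 2 lower of 15 in the FaDu EGF comparison, SLC7A1, an arginine and lysine carrier, among the higher ones (log2 1.20) and SLC1A3, a glutamate carrier, among the lower ones (log2 -1.83). In Kyse30 the EGF comparison called 2 of 33 initiation factors, 3 of 35 tRNA processing genes and 3 of 20 ATF4 response genes higher and none of them lower, beside 8.10% of all genes called higher. The first 2 counts are close to that share. Of the Kyse30 amino acid transporters 1 of 15 was higher and 3 were lower, and the elongation, RNA polymerase III and mitochondrial translation lists had 1, 1 and 0 higher and none lower.

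A gene on the opposite strand that is also in the table lies within 1000 bases of the 3′ end of 4 members: EIF2AK1 at AIMP2, WDR55 at HARS1, DDIT3 at MARS1 and DNM1L at YARS2. The strand setting of the counting is not given in the sources used here. Whether reads of a neighbour entered the counts of these members is therefore not known and was not tested.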

How the data were processed

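RNA from sorted spheroid cells was made into Lexogen QuantSeq 3′ libraries, per the labels' protocols, and the submitters' processing notes name STAR, HTSeq and GRCh38 with no version. The authors deposited 1 table of raw read counts per gene (12655 genes, 40 libraries); these counts were used without change. edgeR 4.0.16 in R 4.3.3 fitted the 20 libraries of a line together (TMM, filterByExpr, robust quasi-likelihood), and all 40 for the differences between lines. p-values were adjusted by Benjamini-Hochberg over all genes tested, with a threshold of 0.05. The fits were run on simulated data for the EGF comparison and its difference between lines only. Changes as small as those of many members were not simulated. Counting error falls with depth, so the library of 463124 counts gives the least precise values, and its floor of 3 counts covers counting error only.

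The members and gene lists were chosen with earlier results of these data known. Per-library values are given for the 3 called members with the largest change and a mean of 10 CPM or more in each line's EGF, cetuximab and MEK inhibitor comparison, the called member (or that with the smallest p) for invasion, and the most abundant and the most line-dependent member of each class; 2 others (PARS2 and SARS2) were added after their values were seen. Alternatives were other size factors, no filter, DESeq2 1.42.0, limma-voom 3.58.1, a replicate block, and fits without chosen libraries. Promoters and positions came from RefSeq (GRCh38.p14), and neighbours from GENCODE on the same genome build. For 2 members, counted in all totals, results by name are not reported here.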

Additional observations from a re-analysis of the deposited data

Results flagged for a closer look

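In 6 members the EGF effect differed between the lines by a direct edgeR test of the difference, given as Kyse30 less FaDu on the log2 scale: EARS2 (-1.66), YARS2 (-1.26), VARS1 (-1.18), TARS1 (-1.09), FARSB (-1.03) and KARS1 (-1.01). The FARSB and YARS2 calls were lost with limma-voom, and that of FARSB also with DESeq2's size factors and with a replicate block.

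Among 140 groups of 4 libraries of the members shown by library, 13 held a library whose gap to its nearest neighbour was above Dixon's 95% critical share of the group's range; chance flags about 1 group in 20. In 4 of them the low library was the shallow Kyse30 invasive replicate 1: AIMP1 at 0 CPM, EPRS1 at 117.7 CPM, HARS1 at 14.98 CPM and TARS1 at 241.8 CPM. Kyse30 non-invasive libraries gave KARS1 at 129.7 CPM in replicate 3 (low) and TARS1 at 848.3 CPM in replicate 4 (high). Kyse30 also gave high values for IARS2 at 109.1 CPM in cetuximab replicate 4, SARS1 at 242.6 CPM in cetuximab replicate 1 and EARS2 at 22.4 CPM in serum-free replicate 4. In FaDu the high libraries were AARS1 at 180.2 CPM in cetuximab replicate 2 and EARS2 at 30.76 CPM in cetuximab replicate 3, and the low ones GARS1 at 133.4 CPM in invasive replicate 1 and TARS1 at 259.3 CPM in serum-free replicate 1.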

How the results depend on the processing

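No called change of a member named by the rule changed direction under any alternative run. The member counts in this paragraph stand without the share over all genes of the same fit. A rise or fall in them is therefore not a result about the members, and the same holds for refits above given without that share. Over all genes tested, leaving out the shallow library raised the Kyse30 EGF calls from 8.10% to 15.9% higher and from 4.76% to 12.0% lower. In FaDu the EGF comparison called 19 to 22 members when 1 replicate number was left out (24 with all libraries), cetuximab against serum-free 17 to 21 (21), the MEK inhibitor against non-invasive cells 8 to 12 (14) and against serum-free cells 4 to 6 (9), cetuximab against non-invasive cells 0 to 2 (3) and invasion 0 to 0 (1). In Kyse30 the ranges were 0 to 11 for EGF and 0 to 3 for cetuximab and the MEK inhibitor against either group, and 0 to 0 for invasion. For the differences between lines they were 1 to 9 for EGF, 0 to 3 for the MEK inhibitor, 0 to 1 for cetuximab and 0 to 0 for invasion; fewer libraries entered each of these fits. Without the shallow library the Kyse30 counts were 11 for EGF, 5 for cetuximab and 4 for the MEK inhibitor against non-invasive cells, and 3 and 4 against serum-free cells, and the differences between lines gave 1 for cetuximab and 6 for the MEK inhibitor. Without all the libraries that stood apart, an alternative chosen after seeing the data, Kyse30 gave 10 for EGF, 2 for the MEK inhibitor against non-invasive cells, and 4 each for cetuximab and the MEK inhibitor against serum-free cells, and the differences gave 14 for EGF and 4 for the MEK inhibitor. Without FaDu cetuximab replicate 2, also chosen after seeing the data, FaDu EGF called 25, invasion 3, cetuximab and the MEK inhibitor 4 and 15 (1 of them higher) against non-invasive and 19 and 10 against serum-free cells, and the difference for the MEK inhibitor 1. DESeq2 called 3 for FaDu invasion, 5, 2 and 2 for Kyse30 EGF, cetuximab and MEK inhibitor against non-invasive cells, and 1 and 4 for the differences in cetuximab and MEK inhibitor; DESeq2's size factors in edgeR gave 0 for the Kyse30 MEK inhibitor against non-invasive cells and 2 for the difference, and limma-voom 2 for that difference. Those size factors moved the median log2 change of all genes by -0.11 in the Kyse30 EGF comparison and 0.11 in its MEK inhibitor comparison, and by under 0.1 elsewhere. The cause of these shifts was not tested. Pairs of libraries with the same replicate number had median correlations of -0.014 in FaDu and 0.002 in Kyse30. Of 40 such pairs, 8 in FaDu and 6 in Kyse30 correlated above 0.1, with highest values of 0.31 and 0.352. In each line 8 of 20 libraries correlated best with their own number. These values do not settle whether some groups were paired. With a replicate block the FaDu EGF count was 24, and Kyse30 cetuximab against serum-free gave 0 in place of 1. Depth limits Kyse30 invasive replicate 1, where 18 members had no count.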
